A study of Mus musculus with 4 samples.

Results

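The linker histone H1 genes were examined in primary mouse hematopoietic stem and progenitor cells (HSPCs) with and without deletion of Chaf1b, which encodes a subunit of the replication-coupled histone chaperone CAF-1. The members were chosen by symbol and are 8 of the 43629 gene identifiers in the count files, namely the replication-dependent genes Hist1h1a, Hist1h1b, Hist1h1c, Hist1h1d and Hist1h1e, the replication-independent genes H1f0 and H1fx, and the testis-type gene Hist1h1t. H1f0 was not analysed here, because the identifier that the mm9 annotation used here gives it is not among those in the count files, and the 7 other genes were counted in all 4 libraries. The grouping was made with the difference between these same libraries already known, so the changes of the members are given as a description. No p-value is printed for them, their count past the thresholds used for all genes only describes them, and no support is drawn from either.

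Control cells were CD117+ HSPCs of C57Bl/6 mice homozygous for floxed Chaf1b (Chaf1b fl/fl), transduced with the empty retroviral vector MIGR1, and Chaf1b-deleted cells were HSPCs of the same genotype transduced with MIGR1-Cre, which carries the recombinase that removes the floxed sequence. All cells grew in StemSpan SFEMII with LDL, 50 ng/mL SCF, 10 ng/mL IL-3 and IL-6, for which the labels give 20 ng/mL and the study's methods another dose. They were sorted for the eGFP of the vector, and total RNA was taken 48 h after transduction, from 2 libraries per group. The labels state neither the age of the mice nor whether libraries came from separate animals, so the spread between replicates may be partly technical. Cre was expressed from the virus in the deleted group alone, so that its own effects and those of the deletion cannot be told apart. The RNA is that of a mixed cell population, in which fewer cells of a type and less RNA per cell cannot be told apart either.

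H1 proteins bind nucleosomes at the entry and exit of the DNA and help to compact chromatin. Hist1h1a to Hist1h1e encode the somatic subtypes H1.1, H1.2 (Hist1h1c), H1.3 (Hist1h1d), H1.4 (Hist1h1e) and H1.5 (Hist1h1b), which are made mostly in S phase from mRNAs that end in a stem-loop instead of a poly(A) tail. H1fx (H1X, H1.10) is transcribed outside S phase as well and gives a polyadenylated mRNA, and Hist1h1t (H1t) is known from spermatocytes of the testis. Since the libraries were made from ribosome-depleted total RNA, transcripts without a poly(A) tail could be counted.

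The mRNA end that distinguishes these classes could be read from the mm9 genome. The consensus of the histone stem-loop occurred within 300 bases after the last coding codon of all 6 Hist1h1 genes and not of H1fx, while it was found in 69 of 22756 annotated protein-coding genes (0.303%), of which 60 are named as histone genes. The sites are shown because they separate H1fx from the other members. Capitals mark the 16 bases of the stem and loop, written 5′ to 3′ on the strand of the gene.
Hist1h1a, chr13:23856256-23856281, plus strand: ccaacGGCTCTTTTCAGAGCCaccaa
Hist1h1b, chr13:21871701-21871726, minus strand: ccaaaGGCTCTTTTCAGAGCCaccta
Hist1h1c, chr13:23831376-23831401, plus strand: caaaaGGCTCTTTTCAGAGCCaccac
Hist1h1d, chr13:23647651-23647676, plus strand: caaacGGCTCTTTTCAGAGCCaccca
Hist1h1e, chr13:23713646-23713671, minus strand: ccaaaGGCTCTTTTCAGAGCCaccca
Hist1h1t, chr13:23788389-23788414, plus strand: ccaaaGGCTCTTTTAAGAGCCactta

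The 16 bases were identical in the 5 replication-dependent genes, and Hist1h1t differed from them by C10A, counted from the first base of the stem. The hexamer AATAAA, the usual signal for polyadenylation, lay in the last 50 bases of the annotated transcript of H1fx, and also of Hist1h1c and Hist1h1t, which therefore carry both features. It was absent from that window in the other 4 genes. For Hist1h1b this says nothing about the mRNA end, because its annotated transcript ends before its stem-loop.

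The promoters differed in the same way. For all 7 genes a RefSeq promoter was available. Each shown window was found exactly once on the strand of its gene in its own mm9 chromosome, and the rest of the genome was not searched for it. The last 130 bases before the start site are printed for a typical replication-dependent gene, for Hist1h1a, which lacks the H1 box, and for the testis-type and replication-independent genes. Capitals mark matches on either strand to the H1 box (AAACACA), the CCAAT box (CCAAT) and the TATA box (TATAA).
Hist1h1e, chr13:23714428-23714557, minus strand: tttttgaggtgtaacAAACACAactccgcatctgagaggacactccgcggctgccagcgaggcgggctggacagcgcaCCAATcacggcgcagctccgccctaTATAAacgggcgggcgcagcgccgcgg
Hist1h1a, chr13:23855407-23855536, plus strand: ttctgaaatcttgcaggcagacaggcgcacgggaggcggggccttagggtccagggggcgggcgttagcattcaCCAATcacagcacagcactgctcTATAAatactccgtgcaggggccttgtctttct
Hist1h1t, chr13:23787550-23787679, plus strand: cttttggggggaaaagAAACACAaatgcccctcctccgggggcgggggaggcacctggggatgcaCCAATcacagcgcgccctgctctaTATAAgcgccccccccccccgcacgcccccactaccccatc
H1fx, chr6:87931477-87931606, minus strand: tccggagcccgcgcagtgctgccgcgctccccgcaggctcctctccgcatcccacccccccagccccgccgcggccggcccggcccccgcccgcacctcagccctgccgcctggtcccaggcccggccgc

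Within 250 bases upstream of the start site, the H1 box was found in 5 of the 7 genes, namely Hist1h1b, Hist1h1c, Hist1h1d, Hist1h1e and Hist1h1t, against 6.25% of 32851 RefSeq promoters. It began between -122 and -112 in all 5. The CCAAT box was found in all 6 Hist1h1 genes (33.8% of all promoters), and the TATA box in 5 genes (22.8% of all promoters), which leaves out Hist1h1c and H1fx. Hist1h1c lacks only the exact letters searched, as its promoter holds TATATATA shortly before the start site. Of the motifs searched, H1fx held only a GC box (GGGCGG), found in 5 of the 7 genes and in 32.7% of all promoters. G and C made up 75.2% of its 250 upstream bases, against 47.6% to 56.8% in the Hist1h1 genes. By these letters Hist1h1t resembled the replication-dependent genes more than H1fx did, and a match is not evidence that a factor binds there.

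**Figure D1:**
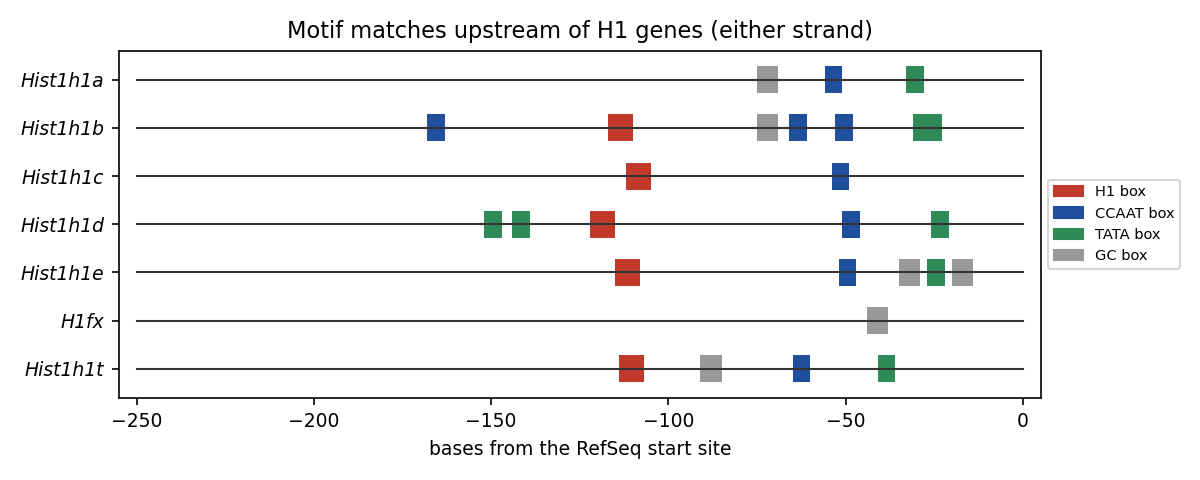
Matches to 4 short motifs in the 250 bases upstream of the RefSeq start site of each H1 gene; the x axis gives the distance in bases, and each box covers a match on either strand. The H1 boxes of 5 genes line up between -122 and -106, and the line of H1fx carries a GC box alone.

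Reads counted on genes ranged from 18468637 to 25409926 per library, so that 3 counts, the least that is read as present, correspond to 0.118 to 0.162 CPM (counts scaled to the depth on genes). Chaf1b had 80.3 and 57.9 CPM in the controls and 16.1 and 17.9 CPM in the deleted libraries. Kit, which encodes CD117, was present in every library, between 95.6 and 124 CPM. A pair of libraries stood apart. Chaf1b-deleted replicate 1 had 336 CPM of Xist and 43.1 CPM of the interferon-stimulated gene Isg15, against at most 1.30 and 2.98 CPM in the other libraries. Xist is transcribed in female cells. Chaf1b-deleted replicate 1 thus differed in its share of female cells from the other deleted library and from both controls. The spread of the deleted libraries, and also the difference between the groups, can therefore include a difference between donor animals. In control replicate 1, 12697 genes had between 1 and 9 counts, against 7754 to 8452 genes in the others. The changes of the members are therefore also given without these libraries.

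In control HSPCs, the counted H1 transcripts, which do not include H1f0, were almost entirely replication-dependent. Per length of annotated exon, as RPKM (reads per kilobase of exon, scaled to the depth of the library), Hist1h1e had the highest level, 1192 ± 91.3 (SD, n = 2 for this and the following levels). Hist1h1a followed with 784 ± 221 RPKM and Hist1h1b with 765 ± 169 RPKM, and the control libraries of these neighbours overlapped. Hist1h1c had 409 ± 12.8 RPKM and Hist1h1d 191 ± 37.2 RPKM. Hist1h1t stood at 4.06 ± 0.48 RPKM and H1fx at 0.539 ± 0.235 RPKM, and apart from Hist1h1a and Hist1h1b no neighbours in this order overlapped.

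The order among the 5 replication-dependent genes depended on the annotated length. The annotated transcripts of Hist1h1d (3821 bases) and Hist1h1c (1560 bases) extend far beyond their stem-loop, while those of the other 3 have 743 to 748 bases. Per coding length instead, Hist1h1d came second with 1099 ± 215 RPKM and Hist1h1c next with 1002 ± 31.3 RPKM, and neighbours from Hist1h1d down to Hist1h1b overlapped. Hist1h1e stayed first, Hist1h1t sixth and H1fx last on both scales.

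H1fx (ENSMUSG00000044927) is a gene of 1 exon on chromosome 6 (mm9, 87930416 to 87931476, minus strand). Counts were 9 and 19 for the controls, but 442 and 318 for the Chaf1b-deleted libraries. After TMM normalization these were 0.396 and 0.735 CPM in the controls and 20.3 and 16.2 CPM after deletion. Both deleted libraries lay far above both controls, and the controls differed from each other more, in proportion, than the deleted libraries did. The log2 fold change was 4.99 (standard error 0.43), or 31.7-fold. It was 4.82 without Chaf1b-deleted replicate 1 and 4.62 without control replicate 1, and at most 5.50 when any one library was left out. Of the 16500 genes tested, 23 (0.139%) had a change at least as large.

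The exon of H1fx is not repeated, with 0% of its 31-base stretches found elsewhere in the genome. Its span overlaps in part that of Gm5577, annotated on the opposite strand. Gm5577 had 5 and 22 counts in the controls and 17 and 24 in the deleted libraries, so its counts were far below those of H1fx after deletion, though not in the controls. The strand setting of the counting is not stated, and without it reads of the overlap cannot be assigned to either gene with certainty. The nearest tested genes that do not overlap H1fx, Rab7 at 17623 bases and 8430410A17Rik at 43792 bases, had log2 fold changes of 0.27 and -0.06.

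Hist1h1t (ENSMUSG00000036211) lies on chromosome 13 from 23787680 to 23788588 within the large histone cluster. It had 91 and 86 counts in the controls and 735 and 496 in the deleted libraries, or 4.01 and 3.33 against 33.7 and 25.3 CPM after TMM normalization. The controls were close to each other, and both deleted libraries were several times higher. The log2 fold change was 3.01 (standard error 0.30), or 8.05-fold, and 2.79 without Chaf1b-deleted replicate 1 and 3.14 without control replicate 1. Of all tested genes, 140 (0.848%) had a change of at least this size. As for H1fx, 0% of its 31-base stretches occur elsewhere in the genome.

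The nearest tested genes on either side overlapped between the groups. Hist1h2bc, 3322 bases away on one side, encodes an H2B and had 90.7 ± 6.19 CPM in control and 105 ± 39.1 CPM in deleted libraries (SD, n = 2 each). Hist1h4c, 1340 bases away on the other side, encodes H4 and had 221 ± 3.32 and 285 ± 106 CPM (SD, n = 2 each). Their log2 fold changes of 0.21 and 0.36 were not past the threshold.

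**Figure D2:**
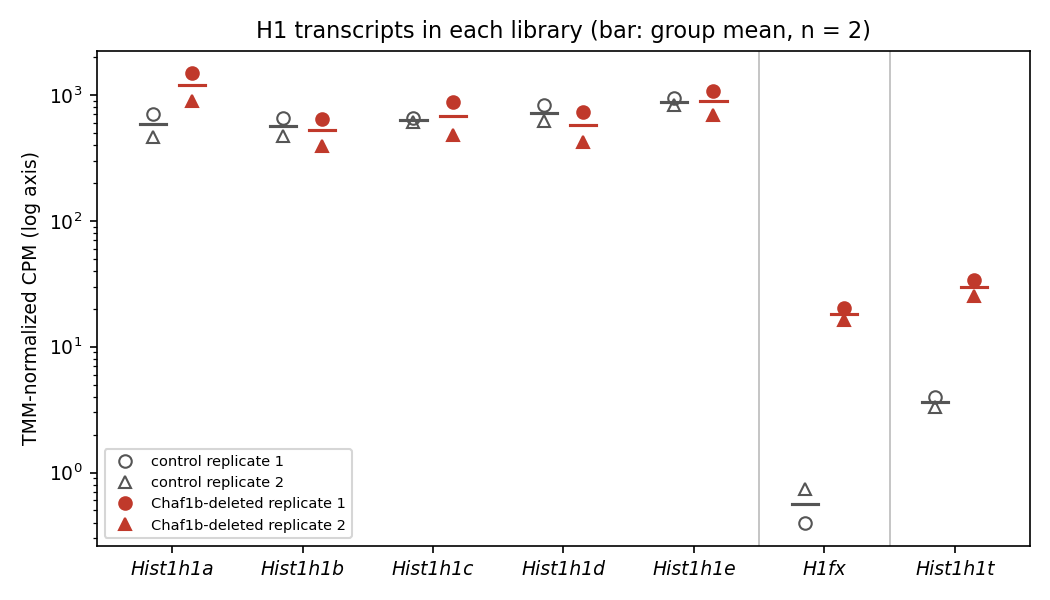
TMM-normalized CPM of the 7 counted H1 genes in each library, on a log axis; open symbols are control and filled symbols Chaf1b-deleted libraries, circles are replicate 1, triangles replicate 2, and bars are group means (n = 2). For H1fx and Hist1h1t, and by a smaller margin Hist1h1a, both deleted libraries lie above both controls, and for the other 4 genes the groups overlap.

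Hist1h1a (ENSMUSG00000049539, chromosome 13 from 23855537 to 23856283) was the only one of the 5 replication-dependent genes whose groups did not overlap. Its TMM-normalized CPM were 703 and 461 in the controls against 1485 and 893 after deletion, and its lower deleted library was above its higher control by less than the controls differed from each other. The log2 fold change was 1.03 (standard error 0.34), and 0.62 without Chaf1b-deleted replicate 1.

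The other replication-dependent genes overlapped between groups. Hist1h1c (ENSMUSG00000036181, chromosome 13 from 23830676 to 23832235) had 652 and 613 CPM in the controls and 878 and 481 CPM after deletion. Hist1h1e (ENSMUSG00000051627, from 23713624 to 23714371) had 941 and 829 CPM, and 1077 and 695 CPM after deletion. In both genes 1 deleted library was above and the other below the controls. For Hist1h1b (ENSMUSG00000058773, from 21871752 to 21872494) the values were 657 and 471 CPM, and 647 and 395 CPM after deletion. Hist1h1d (ENSMUSG00000052565, from 23646901 to 23650721) had 830 and 617 CPM, and 732 and 421 CPM after deletion. In each of the 5 genes Chaf1b-deleted replicate 1 was higher than replicate 2. The log2 fold changes of these 4 genes lay between -0.33 (Hist1h1d) and 0.10 (Hist1h1c), with standard errors from 0.29 to 0.32. Each of the 4 changed sign when single libraries were left out. For Hist1h1e, 27.0% of the 31-base stretches occur elsewhere in the genome, and for Hist1h1c, Hist1h1d and Hist1h1b 11.4%, 9.23% and 3.93%, which makes their counts less certain than those of Hist1h1a (0.279%).

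**Figure D3:**
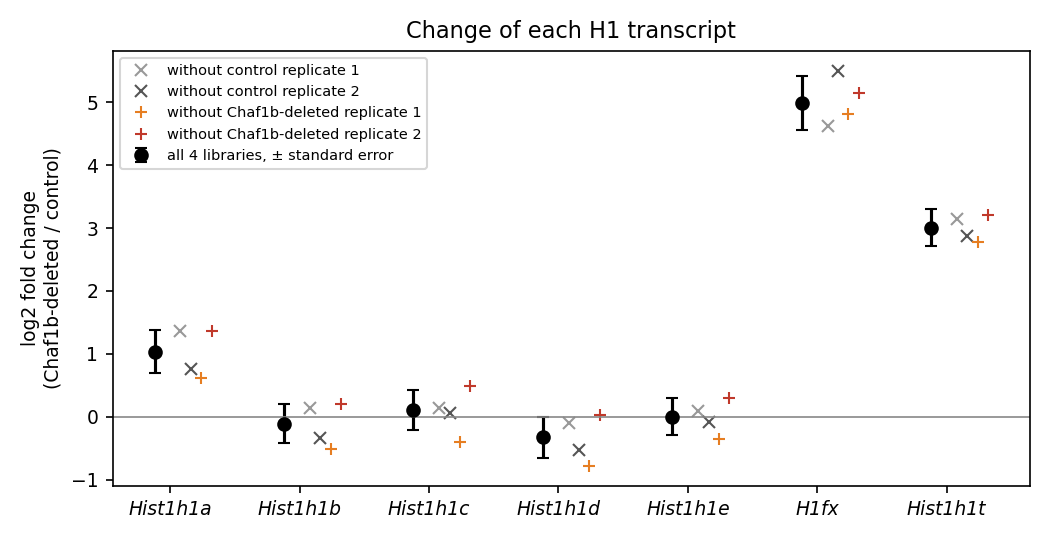
Log2 fold change of each H1 gene between Chaf1b-deleted and control HSPCs; black points with bars are the value from all 4 libraries and its standard error, and crosses are values with 1 library left out. H1fx stays between 4.62 and 5.50 and Hist1h1t between 2.79 and 3.21, while Hist1h1b, Hist1h1c, Hist1h1d and Hist1h1e have values on both sides of 0.

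Across the members, 2 of the 7 counted genes, H1fx and Hist1h1t, met the thresholds for differentially expressed genes (DEGs), a change of at least 1.5-fold and an adjusted p-value under 0.05 in edgeR's quasi-likelihood test. Among all 16500 tested genes 0.376% did so, and nothing is read from this share because the contrast was used to choose the members. H1fx did not meet the thresholds with the replicate number as a block and was not tested when at least 10 counts were required in every library, and Hist1h1t did not meet them under that filter. Both deleted libraries were above both controls in 3 of the 7 members and in 22.3% of all tested genes. The median log2 fold change was 0.10 over the 7 members and -0.03 over all tested genes.

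The proportions of the H1 genes within a library do not depend on scaling between libraries. Counts on the 7 genes together amounted to 3785 and 3047 CPM in the controls and 4512 and 3108 CPM after deletion, so the total overlapped between groups. Replication-dependent genes made up 99.9% of these counts in both controls, and 98.9% and 98.6% after deletion. The share of H1fx was 0.0105% (95% Wilson interval 0.0055 to 0.0199) and 0.0245% (0.0157 to 0.0383) without deletion, compared with 0.416% (0.379 to 0.457) and 0.554% (0.497 to 0.618) in the deleted libraries. The share of Hist1h1t was 0.106% (0.0861 to 0.130) and 0.111% (0.0900 to 0.137) without deletion, compared with 0.692% (0.644 to 0.744) and 0.864% (0.792 to 0.943) in the deleted cells. These intervals reflect counting error alone, and for both genes those of the deleted libraries did not meet those of the controls. Despite the large relative differences, both genes thus remained a small part of the counts on these 7 genes, which leave out H1f0.

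For each count on H1fx there were 9551 and 4070 replication-dependent H1 counts in the controls against 238 and 178 after deletion. On the log2 scale, the ratio of H1fx, which alone stands here for the replication-independent class, to the replication-dependent genes went from -12.61 ± 0.87 to -7.68 ± 0.30 (SD, n = 2 each), a difference of 4.92. For Hist1h1t the log2 ratio went from -9.85 ± 0.05 to -7.00 ± 0.23 (SD, n = 2 each), a difference of 2.85. Within the replication-dependent class the proportions differed as well. Hist1h1a held 18.6% and 15.4% of H1 counts in the controls and 30.5% in each deleted library. Hist1h1d held 21.9% and 20.6% in the controls against 15.0% and 14.4% after deletion. The shares of Hist1h1b were 17.4% and 15.7%, and 13.3% and 13.5% after deletion, those of Hist1h1e 24.8% and 27.7%, and 22.1% and 23.8%, and those of Hist1h1c, which overlapped, 17.2% and 20.5%, and 18.0% and 16.4%. Since the shares add up to the whole, a larger share of Hist1h1a lowers the others. With Hist1h1a left out of the total, an alternative chosen after seeing the data, Hist1h1d still had a lower share in both deleted libraries (26.9% and 24.4% against 21.6% and 20.7%), whereas Hist1h1b, Hist1h1c and Hist1h1e overlapped between groups.

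**Figure D4:**
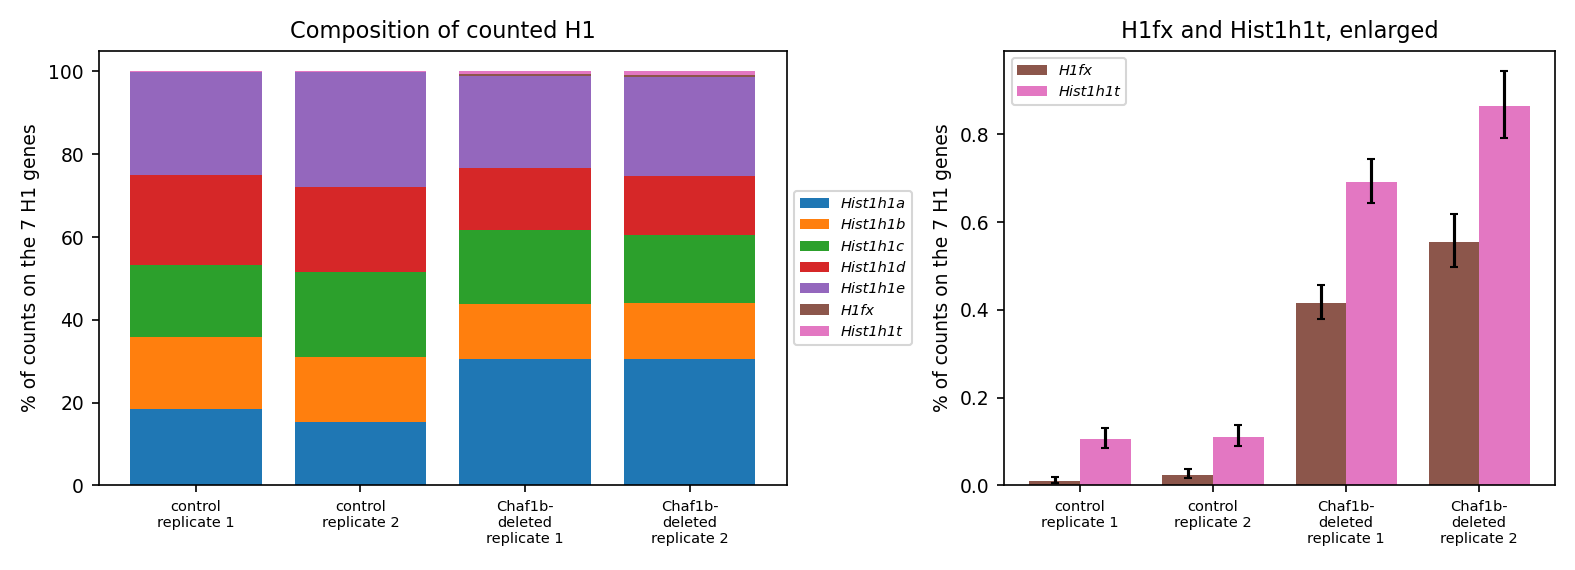
Share of the counts on the 7 H1 genes held by each gene, in percent, per library (left), and the shares of H1fx and Hist1h1t on an enlarged axis with 95% Wilson intervals (right). The band of Hist1h1a widens from 18.6% and 15.4% to 30.5%, and H1fx and Hist1h1t stay under 1% in every library.

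The core histone genes gave the setting for these values. All gene lists that follow were compiled with earlier results of these libraries known. Of 45 tested replication-dependent core histone genes, 1 was an upregulated DEG and 0 were downregulated, against 0.37% and 0.00606% of all tested genes. At an unadjusted p under 0.05 in the same edgeR test, 7 were higher, against 9.15% of all tested genes, and 0 lower, against 3.1%. Their median log2 fold change was 0.21. Both deleted libraries were above both controls in 10 of them, a share like the 22.3% of all tested genes. The list was made by gene name and includes the testis-type genes Hist1h2ba and Hist1h2aa, which are among the 7 and among the 10. The DEG was Hist3h2ba, an H2B gene outside the main cluster, with 2.60 ± 1.11 CPM in control and 26.0 ± 8.65 CPM in deleted HSPCs (SD, n = 2 each). This was a log2 fold change of 3.32 (standard error 0.42), with a Benjamini-Hochberg adjusted p = 0.0367 in the edgeR test named above, and the call was lost when at least 10 counts were required in every library.

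In the cluster on chromosome 13, 42 genes named Hist1h were tested, 6 of them H1 genes, and their median log2 fold change was 0.15. Changes under 1.5-fold in either direction were found for 31 of the 42 (73.8%). The same share over all tested genes was not computed, so this is not read as a trait of the cluster. Around Hist1h1a, the nearest gene Hist1h3a, which encodes H3, had a log2 fold change of 0.85, and Hist1h4a, which encodes H4, one of 0.76. Both deleted libraries were above both controls for each, as in 22.3% of all tested genes, and neither passed the adjusted threshold. The next tested Hist1h genes toward lower coordinates, Hist1h4b (0.31) and Hist1h3b (-0.29), overlapped between the groups. The highest values in the cluster belonged to Hist1h2ba and Hist1h2aa, an adjacent pair that encodes the testis-type histones TH2B and TH2A. The latter was named after its values were seen. Hist1h2ba had 0 and 4 counts in the controls against 92 and 45 in the deleted libraries, and Hist1h2aa 0 and 5 against 128 and 53. Their fitted log2 fold changes of 5.24 and 5.33 rest on almost no control counts and did not reach the DEG thresholds, with an adjusted p = 0.0773 from edgeR for each. Other H1 genes of germ cells stayed near the limit of detection. The oocyte-type H1foo had 1 and 15 counts in the controls against 9 and 8 in the deleted libraries, and the spermatid-type H1fnt and Hils1 had at most 1 count in any library.

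**Figure D5:**
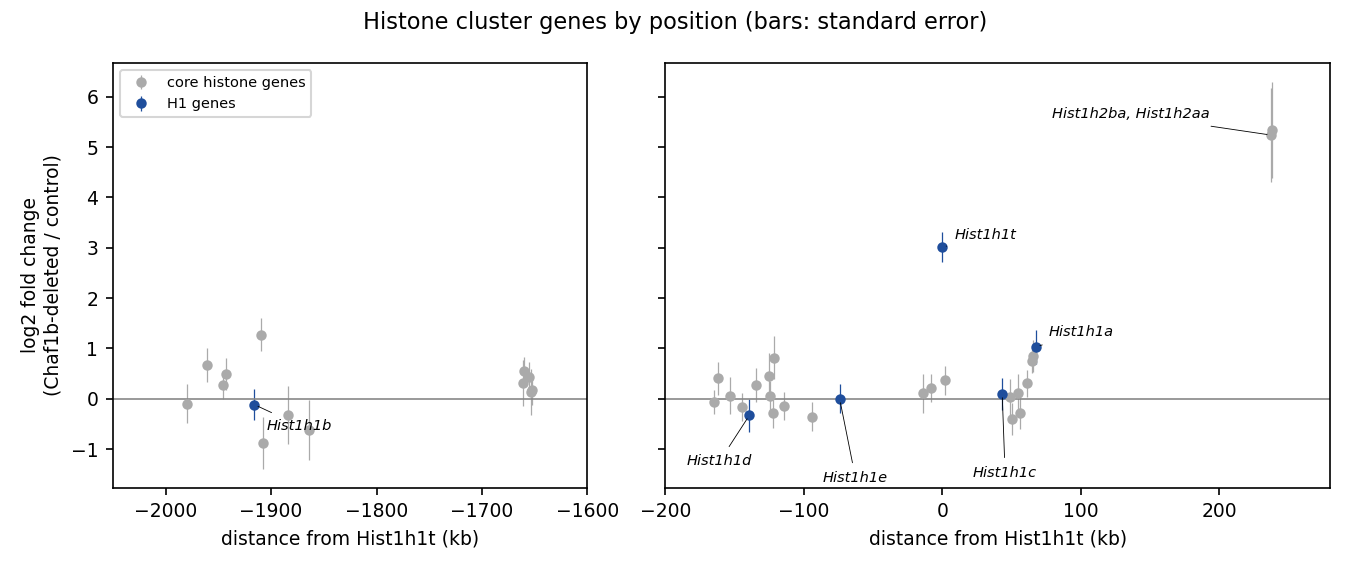
Log2 fold change of the 42 tested Hist1h genes against their distance from Hist1h1t in kb, with standard errors; the left and right panels show both parts of the cluster, blue points are H1 genes and gray points core histone genes. Hist1h1t stands at 3.01 between neighbours near 0, and Hist1h2ba and Hist1h2aa are the points above 5.

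Histone variants with polyadenylated mRNAs were compared because H1fx belongs to this kind of gene. Of 9 such core histone genes, 1 was an upregulated DEG (0.37% of all tested genes), H3f3b, which encodes H3.3, with 373 ± 9.31 CPM in control and 1346 ± 256 CPM in deleted HSPCs (SD, n = 2 each). This was a log2 fold change of 1.85 (standard error 0.26), with an adjusted p = 0.0429 by edgeR. The call was lost with DESeq2's size factors in edgeR, with the replicate number as a block and with at least 10 counts required in every library. Both deleted libraries were above both controls in 6 of the 9, against 22.3% of all tested genes, and the median log2 fold change was 0.25.

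Genes that act on H1 or on histone mRNA were examined next. Of 22 genes for histone gene transcription and histone mRNA processing, 0 were DEGs, against 0.376% of all tested genes. An unadjusted p under 0.05 in edgeR's quasi-likelihood test was found for 0 of them, against 9.15% (higher) and 3.1% (lower) of all tested genes. Both deleted libraries were below both controls in 7 of the 22, against 21.4% of all tested genes, and above them in 2, against 22.3%. The median log2 fold change of the 22 was -0.09. The extremes were Ccne1, which encodes cyclin E1 (log2 fold change 0.26, adjusted p = 0.775 from edgeR), and Npat, the coactivator of histone gene transcription (-0.47, adjusted p = 0.417 from edgeR). With DESeq2 and with edgeR's exact test the number of DEGs among them was 0 as well. Of 16 H1 chaperones and proteins that compete with H1 for chromatin, 0 were DEGs with edgeR's quasi-likelihood test, its exact test or DESeq2, while 1 was higher and 2 were lower at an unadjusted p under 0.05, against 9.15% and 3.1% of all tested genes. Their median log2 fold change was -0.21. Among these, the nucleosome-binding protein genes Hmgn1 and Hmgn5 had log2 fold changes of 0.76 and -0.80 (adjusted p = 0.335 and 0.349 from edgeR).

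Replication-dependent H1 mRNA follows the share of cells in S phase, so S-phase genes are given beside it. Of 26 S-phase genes, both deleted libraries were below both controls in 12, against 21.4% of all tested genes, and the median log2 fold change was -0.33. The only DEG among them was Chaf1b, the deleted gene itself. Their summed level was 4777 and 3808 CPM in the controls and 3671 and 3120 CPM after deletion, whereas the summed level of the 5 replication-dependent H1 genes, 3784 and 2990 CPM in the controls and 4819 and 2884 CPM after deletion, overlapped. In each group, replicate 1 had the higher level of both. The part of S phase in the H1 values was not tested.

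Markers of blood cell types were measured for the same reason. In the counts that follow, an unadjusted p under 0.05 is to be read against the 9.15% of all tested genes that were higher and the 3.1% that were lower at this p. Flt3 was the only upregulated DEG of the 9 stem and progenitor markers, against 0.37% of all tested genes. Of the 9, 3 that were higher and 2 that were lower had an unadjusted p under 0.05 by edgeR's quasi-likelihood test. The median log2 fold change of these markers was 0.06. Their summed level was 1712 to 1714 CPM in the controls and 1288 to 1412 CPM after deletion, a lower level that rested on Spn and Myb. Without this pair, left out after seeing the data, the other 7 summed to 423 to 483 CPM and 501 to 529 CPM. Of 14 neutrophil and monocyte markers, 0 were DEGs by edgeR's quasi-likelihood test, and an unadjusted p under 0.05 was found for 4 that were higher and 1 that was lower. Their summed level was 42526 to 46440 CPM in the controls and 42196 to 66858 CPM after deletion. The log2 fold change was above 0 in 9 of the 14 and below 0 in 5. Mmp9 had the largest increase (log2 fold change 2.74, adjusted p = 0.0849 from edgeR). Its controls lay far apart, at 135 and 43.6 CPM, against 717 and 477 CPM after deletion. Elane had the largest decrease (adjusted p = 0.319 from edgeR). It had 1740 and 2327 CPM in the controls and 1328 and 707 CPM after deletion. Of 13 megakaryocyte and erythroid markers, 5 that were higher and 1 that was lower had an unadjusted p under 0.05, and their median log2 fold change was 0.34. Their summed level was 847 to 921 CPM in the controls and 662 to 746 CPM after deletion, which rested on the transferrin receptor gene Tfrc alone. Without Tfrc, left out after seeing the data, the other 12 summed to 152 to 191 CPM and 213 to 314 CPM. Mast cell and basophil markers summed to 643 to 1076 CPM in the controls and 845 to 904 CPM after deletion, and of the 7 tested 1 higher and 1 lower gene had an unadjusted p under 0.05. Lymphoid markers summed to only 99.0 to 123 CPM and 94.1 to 136 CPM. Of the 8 tested, both deleted libraries were above both controls in 7 (22.3% of all tested genes) and 2 higher genes had an unadjusted p under 0.05, with a median log2 fold change of 0.90, and the T cell genes Cd3e, Cd3g, Cd4 and Cd8a did not pass the expression filter. None of these 3 lists, megakaryocyte and erythroid, mast cell and basophil, or lymphoid, held a DEG with edgeR's quasi-likelihood test. The part of cell composition in the H1 values was not tested.

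By a fixed rule, the 3 named genes closest to H1fx in their centred log2 CPM over the 4 libraries were Hspa1b, which encodes an inducible heat shock protein and has a near-identical copy in Hspa1a (Euclidean distance 0.39 on the log2 scale), Hist1h2ba (0.74) and mmu-mir-689-2 (0.85). Those closest to Hist1h1c were Sumf1 (0.05), Olfr56 (0.07) and Hist1h2bg, another H2B gene of the cluster (0.07). With 4 libraries such likeness mostly restates the difference between the groups.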

How the data were processed

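RNA-seq of 4 HSPC libraries was used, 2 per group, with groups and replicate numbers from the sample titles. The deposited values are raw counts per Ensembl gene, which the authors obtained with STAR (mm9) and HTSeq-count from stranded, ribosome-depleted libraries. Annotation release and strand setting are not given in the sources used here. Of 43629 identifiers, 33068 were named through the NCBIM37 annotation, which also gave positions and lengths.

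Differential expression was computed with edgeR 4.0.16 (R 4.3.3): expression filter with a minimum count of 10, TMM normalization, quasi-likelihood test over 16500 genes, Benjamini-Hochberg adjustment and the study's DEG thresholds. The code was tested on simulated counts. Members, lists and tests were chosen with earlier results of these data known. Named genes are the members, Chaf1b, and from each list its DEGs or else its extremes in log2 fold change, plus the closest profiles. Hist1h2aa, Hist1h3a, Hist1h4a, Hist1h4b and Hist1h3b were named after their values were seen. Between 35.8% and 48.3% of uniquely aligned reads fell outside genes and were left out. Intervals cover counting error only, as reads have no molecular identifiers.

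Alternatives were DESeq2 size factors, library size and upper-quartile scaling, 2 other filters, edgeR's exact and likelihood ratio tests, DESeq2 1.42.0, a replicate block, stricter thresholds, other lengths and each library left out.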

Additional observations from a re-analysis of the deposited data

How the results depend on the processing

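The 61 higher and 1 lower DEGs of all genes, and the 2 H1 members, 1 replication-dependent core histone, 1 polyadenylated variant and 1 S-phase gene among them, varied with the processing, and unless stated the cause was not tested. Without a low-count filter there were 808 higher and 79 lower genes, 3 members (with Hist1h1a), 6 core histones and 2 variants. With DESeq2 the numbers were 471, 32, 3 (with Hist1h1a), 4 and 2, with edgeR's exact test 537 and 37 genes, 4 core histones and 2 variants, and with its likelihood ratio test 583, 40, 4 and 2. DESeq2's size factors in edgeR left 27 higher genes and 0 variants, and library size alone 30 higher genes. With at least 10 counts in every library, which removes H1fx by its 9 counts in control replicate 1, 3 genes were higher, 0 lower, and 0 members, core histones, variants or S-phase genes were called (1749 genes at an unadjusted p under 0.05, edgeR's quasi-likelihood test). At 2-fold and an adjusted p under 0.01, all these counts were 0 (2022 genes at an unadjusted p under 0.05, same test).

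With each library left out in turn, for which a lone library was assumed to vary like the other group, 110 to 339 genes were higher and 6 to 41 lower, with 1 to 5 core histones, 1 to 2 variants and the same 2 members called each time. Without Chaf1b-deleted replicate 1 there were 110 higher genes, 223 without Chaf1b-deleted replicate 2, 285 without control replicate 1 and 339 without control replicate 2. The log2 ratio of H1fx to replication-dependent H1 stayed between 4.31 and 5.54, and was 4.81 per length and 4.90 without Hist1h1c.

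The replicate number as a block left 14 higher and 0 lower genes, 1 member (Hist1h1t), 0 variants and 0 S-phase genes. Same-numbered libraries deviated together with a correlation of only 0.01, so the numbers were not taken to pair the libraries. Of 90 alternative log2 fold changes of single members, 86 moved by less than the spread between replicates. The 4 that moved by more all came from leaving 1 library out. They were Hist1h1c, Hist1h1d and Hist1h1e without Chaf1b-deleted replicate 1, and H1fx without control replicate 2. The spread between replicates comes from the same 2 libraries per group, so it is not an independent yardstick for leaving 1 of them out. The count is therefore no measure of robustness. Neither H1fx nor Hist1h1t changed sign in any of the 90. Ranked by coding length, chosen after seeing the data, 3 of the 7 H1 genes kept their rank by level. Depth limits H1fx most, whose controls had 9 and 19 counts.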
